A study of Homo sapiens with 4 samples.

Results

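The replication-dependent histone genes of the short arm of chromosome 6 (HIST1 in older lists) lie in 2 stretches, from 25.9 to 26.4 Mb and from 27 to 28 Mb in the coordinates of GRCh37. Chromatin loops with the midpoint of at least 1 anchor in either stretch were taken from the Hi-C loop lists of MDA-MB-231 cells, a triple negative breast cancer cell line. These were 225 of 77275 loops over 4 lists, 59 and 81 with vehicle against 47 and 38 with THZ1. Contact domains that overlap a stretch numbered 18 over the 4 lists. Wild-type MDA-MB-231 cells had been treated for 48 h with DMSO (vehicle) or with 75 nM THZ1, an inhibitor of the transcriptional kinase CDK7, and both conditions shared the medium and the Arima-HiC protocol. Each condition had 2 libraries, which the labels call technical replicates of 1 cell line, so spread between them may be technical. Hi-C measures contacts between stretches of DNA and not expression, so cell type markers could not be checked.

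Replication-dependent histone genes encode the core histones H2A, H2B, H3 and H4 and the linker histone H1 that package newly made DNA, and they are transcribed mainly in S phase. They are short genes without introns, lie in clusters, and many H2A and H2B genes sit head to head and share 1 promoter. Their clusters gather in the histone locus body, a nuclear body where their transcription and 3′ end processing take place. A chromatin loop in Hi-C is a pair of sites, the anchors, that contact each other more often than their surroundings, and CTCF, an insulator protein, is the factor best known for marking loop anchors.

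The GRCh37 annotation placed 50 of these histone genes in the 2 stretches, and H2AC1 with H2BC1 lay upstream of the first. They formed 3 groups, with 29 genes at chr6:26017260-26285762 (H1-1 to H4C8), 5 genes at chr6:27100095-27115341 (H2BC11 to H2AC12) and 16 genes at chr6:27775257-27861669 (H2BC13 to H2BC17). The second and the third group are separated by a stretch without histone genes that holds PRSS16, POM121L2, ZNF391 and ZNF184. H2BC7, H2BC8 and H4C6 were not matched in the annotation and were not used here.

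The promoters of head-to-head pairs are shown because their genes lie at the anchors that recur in the results below, namely H2BC4 and H2AC6 at both ends of short and long loops of the first group, H2BC12 and H2AC12 in the second group, and H2BC13 with H2AC13 and H2AC17 with H2BC17 at the ends of the third. Each sequence is the GRCh37 plus strand between the start sites of a pair, with the first gene read to the left and the second to the right. Capitals mark the TATA box letters TATAAA, the CCAAT box letters CCAAT and the octamer ATTTGCAT on either strand. In capital runs of TTTATAAA the TATA box letters of both strands overlap.
H2BC4/H2AC6, chr6:26124155-26124399: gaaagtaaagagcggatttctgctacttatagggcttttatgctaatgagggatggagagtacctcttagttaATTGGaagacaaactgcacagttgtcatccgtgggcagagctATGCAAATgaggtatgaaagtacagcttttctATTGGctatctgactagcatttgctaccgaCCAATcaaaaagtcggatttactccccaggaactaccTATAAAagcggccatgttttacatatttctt
H2BC12/H2AC12, chr6:27114635-27114884: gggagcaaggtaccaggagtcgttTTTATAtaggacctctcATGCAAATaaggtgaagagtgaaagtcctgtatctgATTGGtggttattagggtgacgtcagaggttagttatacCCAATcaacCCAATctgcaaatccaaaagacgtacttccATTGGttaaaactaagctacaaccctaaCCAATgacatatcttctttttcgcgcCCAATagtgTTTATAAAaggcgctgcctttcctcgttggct
H2BC13/H2AC13, chr6:27775708-27775950: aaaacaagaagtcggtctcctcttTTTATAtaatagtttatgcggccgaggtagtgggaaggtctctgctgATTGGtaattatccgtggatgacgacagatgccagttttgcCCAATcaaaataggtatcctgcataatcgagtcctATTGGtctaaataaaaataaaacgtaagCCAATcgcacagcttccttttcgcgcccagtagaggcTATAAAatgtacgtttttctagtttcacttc
H2AC17/H2BC17, chr6:27860964-27861202: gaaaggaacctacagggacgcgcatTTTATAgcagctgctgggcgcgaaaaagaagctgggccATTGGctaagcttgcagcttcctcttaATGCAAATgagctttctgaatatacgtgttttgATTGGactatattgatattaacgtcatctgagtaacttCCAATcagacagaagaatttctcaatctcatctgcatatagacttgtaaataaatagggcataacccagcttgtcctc

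In the 250 bases upstream of each histone gene, the TATA box letters stood on either strand in 34 of 50 (68%), against 9.22% of 19540 protein-coding genes of the genome. The CCAAT box letters stood in 43 of 50 (86%), against 34.3% of all genes, and the H4 genes were the exception with 4 of 11. The octamer stood in 18 of 50 (36%), against 1.54% of all genes, and those were 9 of 11 H2A genes and 9 of 12 H2B genes, with none among H1, H3 and H4 genes. Paired genes share most of this window, so their matches are not separate counts.

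The CTCF core motif, searched as exact letters on both strands, was in none of the 54 distinct anchors of 5 kb in the 2 stretches, against 6.68% of 29472 anchors of this width in the genome. It was also in none of 33 anchors of 10 kb and of 14 anchors of 25 kb, against 9.70% and 14.2% in the genome. These counts say only that this form of the motif was not in these windows. With 1 call searched per loop, the 1 match at a far end of the cluster's loops lay outside the stretches. It was on the minus strand beside ABT1 at chr6:26596162-26596191. It is shown 5′ to 3′ on its own strand with the motif in capitals.
ABT1 side anchor: gggcgcgaCCAGCAGGGGGCGCcgtcccca

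Fewer loops were called over the cluster with THZ1. Both THZ1 libraries (47 and 38 loops) held fewer than either vehicle library (59 and 81). The log2 ratio of the means was -0.72 (SD between libraries 0.28, n = 2 per condition), beside -0.47 for the rest of chromosome 6 and -0.48 for all loops of the genome, and was -0.47 without vehicle replicate 2. The cluster held 0.284% and 0.334% of all loops with vehicle against 0.273% and 0.252% with THZ1. In an exact two-sided permutation test of 2 against 2 libraries the smallest p is 0.333, which this count reached, as did each other comparison of library counts below whose conditions did not overlap (0.488 after Benjamini-Hochberg adjustment over 82 quantities). The lists hold no read totals, so the part of sequencing depth in the number of loops was not tested.

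The loops within the second stretch, the histone-free stretch and the histone groups on its flanks, had the largest difference in number of the 5 classes. They numbered 29 and 38 with vehicle against 18 and 17 with THZ1, a log2 ratio of -0.94 (SD 0.20, n = 2). Loops within the first stretch numbered 10 and 12 with vehicle against 8 and 5 with THZ1. Loops between the 2 stretches, by contrast, numbered 7 and 7 with vehicle against 8 and 6 with THZ1, so that their means were equal (difference 0, SD 1, n = 2; exact permutation p = 1). The between-stretch loops with a histone gene at both anchors numbered 5 and 5 with vehicle against 8 and 6 with THZ1, a log2 ratio of 0.49 (SD 0.21, n = 2), and did not overlap. This rests on a narrow margin. A loop of vehicle replicate 1 ended at chr6:27090001-27100000, just short of H2BC11 at chr6:27100095, and was left out. Counting it would make the conditions overlap, and alternatives were not run for this subset. These between-stretch loops spanned 775 to 1840 kb, and loops of the genome in this range of sizes numbered 912 and 1142 with vehicle against 1405 and 1209 with THZ1. The loops from the first stretch to a point outside both numbered 8 and 12 with vehicle against 5 and 5 with THZ1, a log2 ratio of -1 (SD 0.29, n = 2), and those from the second stretch numbered 5 and 12 against 8 and 5, which overlapped.

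**Figure D1:**
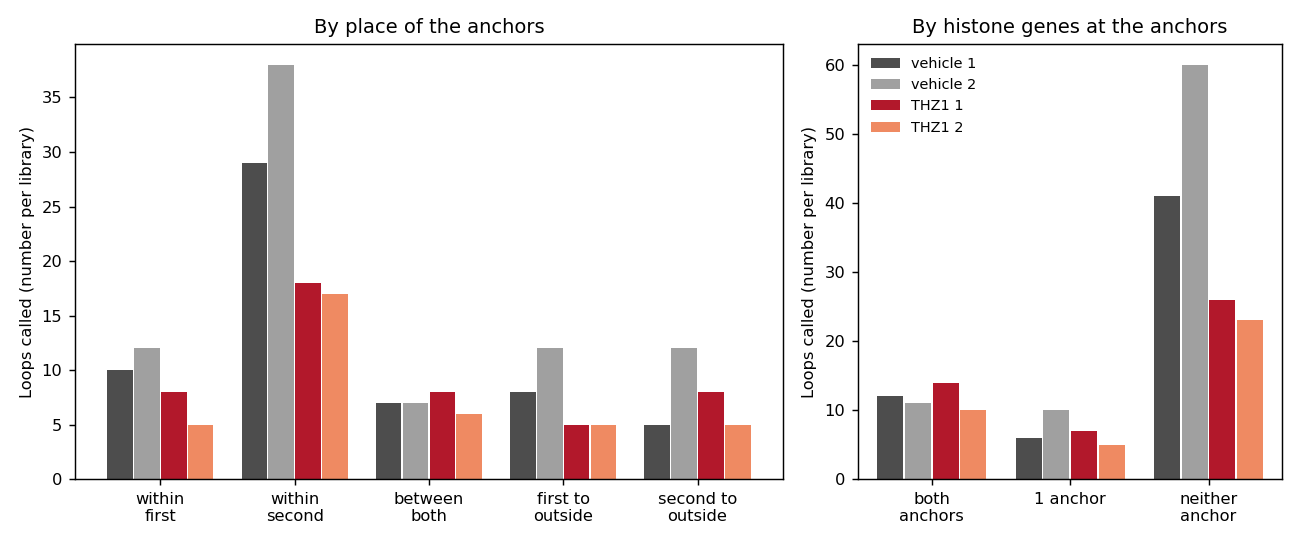
Loops called over the histone cluster in each library (bars, 1 per library; number of loops on the vertical axis), by the place of their anchors (left) and by the presence of histone genes at the anchors (right). The bars of the loops between both stretches sit at 7, 7, 8 and 6, whereas loops with a histone gene at neither anchor sit at 41 and 60 with vehicle against 26 and 23 with THZ1.

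Loops were then sorted by the histone genes under their anchors. Loops with a histone gene at neither anchor numbered 41 and 60 with vehicle against 26 and 23 with THZ1, a log2 ratio of -1.04 (SD 0.29, n = 2), or -0.74 without vehicle replicate 2. Loops with a histone gene at both anchors numbered 12 and 11 with vehicle against 14 and 10 with THZ1, a log2 ratio of 0.06 (SD 0.25, n = 2), and these overlapped between conditions. Loops with a histone gene at 1 anchor numbered 6 and 10 against 7 and 5. Accordingly, loops joining histone genes made up 20.3% and 13.6% of the cluster's loops with vehicle against 29.8% and 26.3% with THZ1. Within the second stretch, the loops without a histone gene numbered 25 and 33 with vehicle against 13 and 13 with THZ1, while those with a histone gene at both anchors were 2 in every library. The sign for loops with a histone gene at both anchors depended on the processing, and the log2 ratio was -0.14 when a histone gene within 10 kb of an anchor was counted, -0.30 under a stricter false discovery rate and -0.20 without THZ1 replicate 1.

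Short loops were fewer. Loops of 90 kb or less, the size to which the study's question of subloops refers, numbered 20 and 21 with vehicle against 11 and 9 with THZ1. Their share of the cluster's loops was 33.9% and 25.9% with vehicle against 23.4% and 23.7% with THZ1, a difference of -6.37 percentage points (SD 3.99, n = 2), beside 37.3% and 36.8% against 26.2% and 25.5% over all loops of the genome. The median loop of the cluster spanned 210 and 250 kb with vehicle against 300 and 283 kb with THZ1, whereas the median over the genome was 140 kb in each vehicle library against 200 kb in each THZ1 library.

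**Figure D2:**
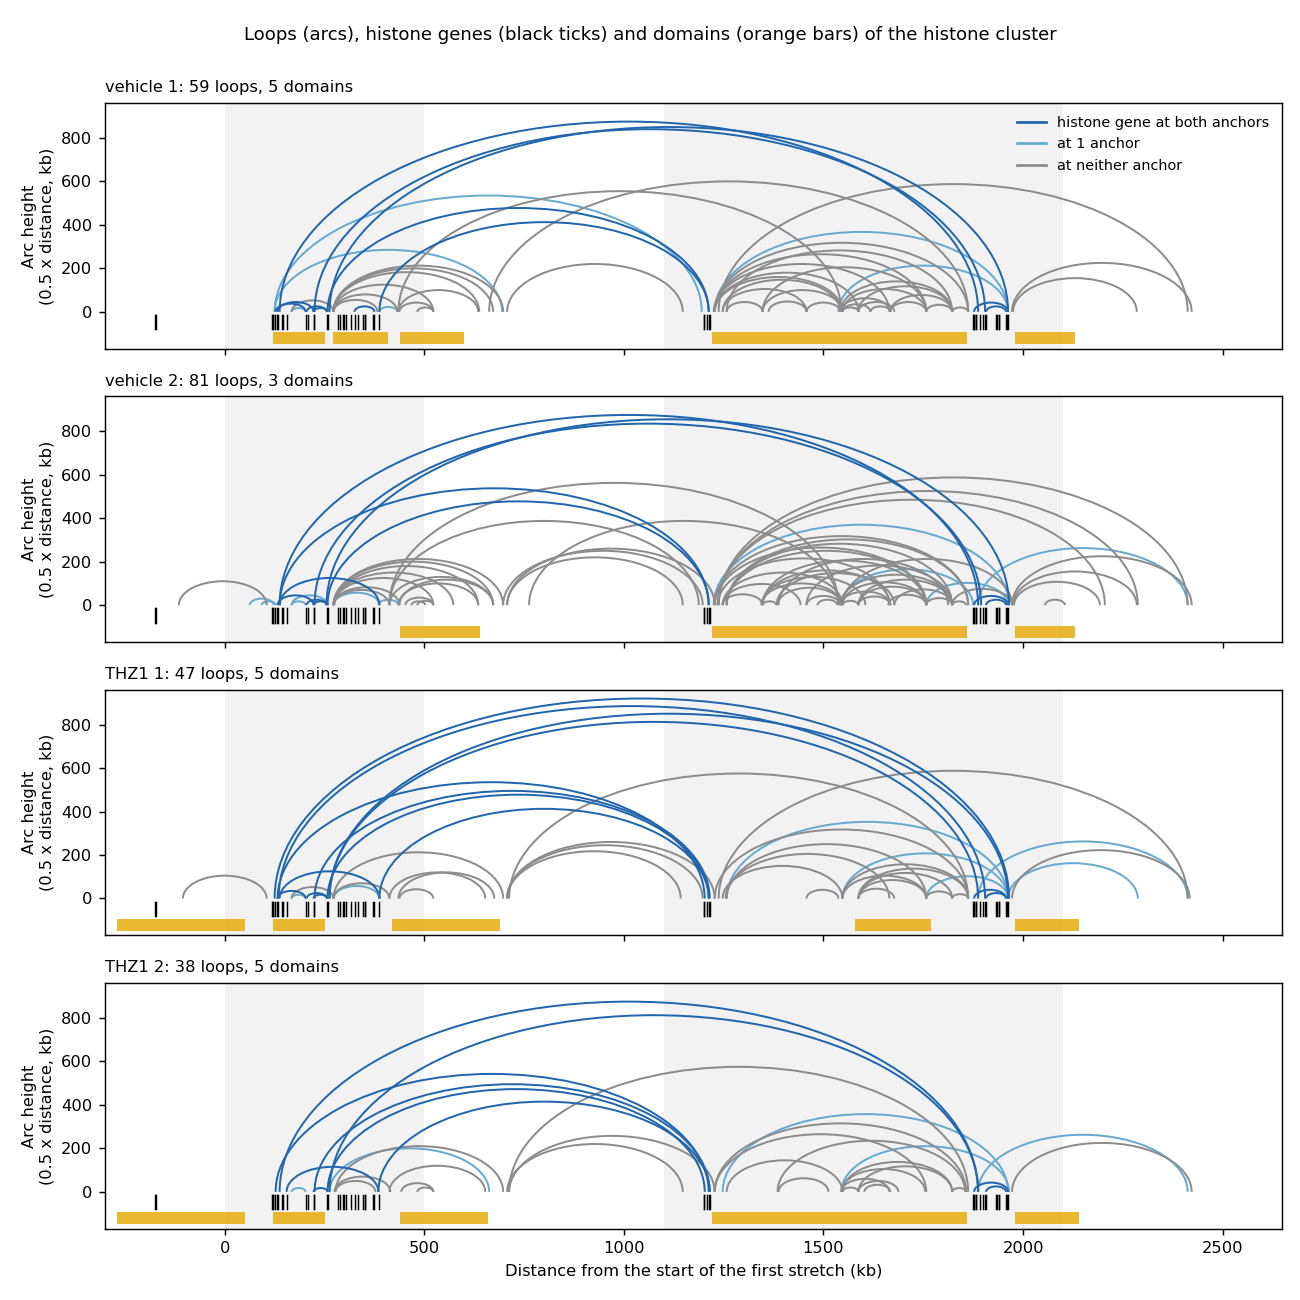
Loops of the cluster in each library, drawn as arcs between anchor midpoints (horizontal axis, distance from the start of the first stretch in kb; arc height, 0.5 times the distance), with histone genes as black ticks, domains as orange bars and the 2 stretches shaded. Dark blue arcs with histone genes at both anchors join the histone groups in all 4 libraries. The grey arcs with both anchors in the second stretch number 25 and 33 with vehicle against 13 and 13 with THZ1.

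The loops of the 4 lists were 96 distinct loops when anchors with midpoints within 20 kb were taken as the same. Of these, 20 were called in all 4 lists, 20 in 3, 25 in 2 and 31 in 1. Counted per list, the loops found in all 4 lists were 21 in each library, which was 35.6% and 25.9% of the vehicle loops and 44.7% and 55.3% of the THZ1 loops, beside 41.9%, 35.9%, 50.4% and 57.2% of all loops of the same lists. Loops that both lists of 1 condition shared and the other condition lacked numbered 13 and 14 in the vehicle lists and 4 and 3 in the THZ1 lists. They were 22.0% and 17.3% of the cluster's vehicle loops and 8.51% and 7.89% of its THZ1 loops, beside 16.4%, 14.2%, 4.58% and 5.38% of all loops of these lists. When midpoints within 50 kb were taken as the same, these loops of 1 condition numbered 8 and 9 in the vehicle lists and 0 and 0 in the THZ1 lists. A loop that is not in a list was not called there, and its contacts are not given.

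Calls taken as the same loop could differ between lists in position and in anchor width, and then lay over different histone genes of a group. Of 12 distinct loops between the stretches, 9 had histone genes at both anchors in at least 1 list, and the other 3 had none and were each called in 1 vehicle library only. The loop called at 5 kb in every library joined chr6:26155001-26160000, which holds H1-4 (a linker histone gene) and H2BC5, to the second histone group. Its far anchor lay over H2BC12 and H2AC12 at chr6:27110001-27115000, 955 kb away, in both vehicle libraries and THZ1 replicate 1, and over H2BC11 and H2AC11 at chr6:27100001-27105000 in THZ1 replicate 2. It held 16 and 21 contacts with vehicle against 22 and 20 with THZ1, or 7.57 and 8.999 times the contacts expected from the surrounding donut with vehicle against 6.58 and 8.15 times with THZ1. These ratios overlapped between conditions.

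A pair of further between-stretch loops was called in all 4 lists, at anchor widths that differed between lists. Contacts and their ratio to expectation depend on the width, so values at different widths are not compared. The first ran from the start of the first histone group to the second group. In vehicle replicate 2 it joined H4C2, H3C2, H2AC4, H2BC3 and H3C3 at chr6:26025001-26050000 to all 5 genes of the second group at chr6:27100001-27125000, at a ratio of 4.98 with 25 kb anchors. In vehicle replicate 1 it ran at 10 kb from H3C1, H4C1 and H4C2 to chr6:27090001-27100000, which holds no histone gene, at a ratio of 6.81. Both THZ1 calls had 5 kb anchors, from H3C2 and H2AC4 to H2BC11 and H2AC11 in replicate 1 (8.25) and from H4C2 to H2BC12 and H2AC12 in replicate 2 (10.53). The other, the longest loop called in all 4 lists at 1750 kb, joined chr6:26025001-26050000 to chr6:27775001-27800000, with H2BC13, H2AC13, H3C10, H2AC14, H2BC14, H4C11 and H4C12, in both vehicle libraries and THZ1 replicate 2. Its ratio at 25 kb was 5.23 and 5.18 with vehicle and 3.91 in THZ1 replicate 2. In THZ1 replicate 1 it joined H3C2 and H2AC4 to H2AC15 and H2BC15 at 10 kb, at a ratio of 6.42.

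Other between-stretch loops were called in some of the lists. H4C8 at chr6:26275001-26300000 was joined to the second histone group in vehicle replicate 1 and in THZ1 replicate 1 with 25 kb anchors, at ratios of 2.50 and 2.65, and in THZ1 replicate 2 with 10 kb anchors over H4C8 and over H2BC12 and H2AC12, at 3.68. The anchor with H1-4 and H2BC5 was joined to H3C12, H2AC17 and H2BC17 at chr6:27850001-27875000 in vehicle replicate 1 and in THZ1 replicate 1 with 25 kb anchors, at ratios of 3.56 and 2.66, and in vehicle replicate 2 with 10 kb anchors to H2AC17 and H2BC17, at 8.44. Both THZ1 libraries and neither vehicle library held a loop from H2BC4 and H2AC6 at chr6:26120001-26130000 to H2BC12 and H2AC12 at chr6:27110001-27120000, with 31 and 32 contacts and ratios of 4.14 and 3.97. The same was true of a loop from H1-4 and H2BC5 to chr6:27775001-27800000, with 45 and 47 contacts and ratios of 2.98 and 3.46. Conversely, both vehicle libraries and neither THZ1 library held a loop from H2BC4 and H2AC6 to the third histone group. It reached H2AC15 and H2BC15 at chr6:27800001-27810000 in replicate 1, with 15 contacts and a ratio of 5.71, and H4C11 and H4C12 at chr6:27790001-27800000 in replicate 2, with 19 contacts and a ratio of 9.37.

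Histone genes lay at anchors in both conditions. Of the 50 genes, 35 lay at an anchor in at least 1 library and 27 in every library, and by library 34 and 31 genes did with vehicle against 31 and 28 with THZ1. H2A genes were at anchors for 8 of 11, H2B for 10 of 12, H3 for 7 of 10, H4 for 7 of 11 and H1 for 3 of 6. The number of loops at a gene was higher in both vehicle libraries than in both THZ1 libraries for 3 genes, and higher in both THZ1 libraries for 2. Genes under the same anchor share their loops and are not separate counts. The share of genes in the genome without such overlap was not counted, here or for the other genes below.

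H1-4 and H2BC5, which share an anchor, had 4 and 5 loops with vehicle against 5 and 4 with THZ1. H2AC17 and H2BC17 had 4 and 4 loops with vehicle against 6 and 3 with THZ1. H2BC13, H2AC13 and H3C10 had 2 and 4 against 3 and 4. These counts overlapped between conditions. The 3 genes with fewer loops in both THZ1 libraries were H4C2, with 4 and 4 against 2 and 2, and the pair H2BC4 and H2AC6, with 3 and 3 against 2 and 2. A gene's count depended on the position and width of each called anchor. In THZ1 replicate 1, the long loops described above from H4C2 had anchors over H3C2 and H2AC4 and were not counted for H4C2. The 2 genes with more were the pair H2BC12 and H2AC12, with 2 and 2 loops with vehicle against 3 and 3 with THZ1. The 15 genes at no anchor were H1-1 and all genes from H2BC6 to H2BC9 but H3C6 in the first group, and H2AC16, H1-5, H3C11 and H4C13 in the third.

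**Figure D3:**
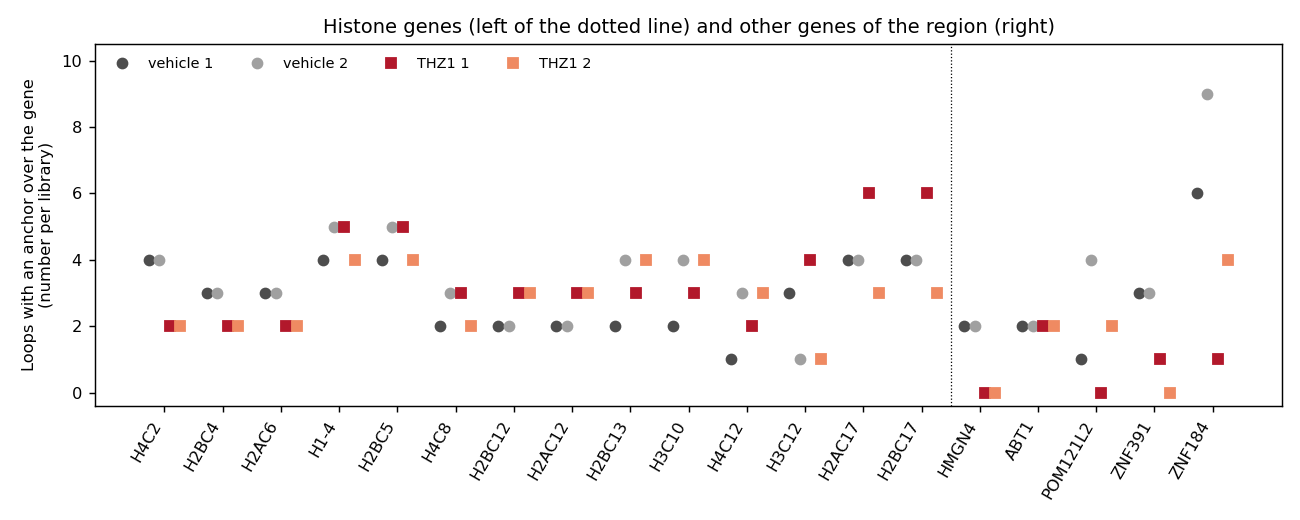
Number of loops with an anchor over each gene (vertical axis) in the 4 libraries (circles, vehicle; squares, THZ1), for histone genes at recurring anchors and for other genes of the region. The histone genes have 1 to 6 loops in each library, and ZNF184 has 6 and 9 with vehicle against 1 and 4 with THZ1. A loop is counted only where its called anchor covers the gene, so counts depend on the position and width of the call. For HMGN4 and ABT1, which lie outside the stretches, only loops with the other anchor in a stretch are counted.

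In the histone-free stretch, ZNF184, a zinc finger gene, had 6 and 9 loops with vehicle against 1 and 4 with THZ1. ZNF391, also a zinc finger gene, had 3 and 3 with vehicle against 1 and 0 with THZ1. Neither gene's counts overlapped between conditions, whereas those of POM121L2 did, with 1 and 4 against 0 and 2. These counts depend on the position and width of each called anchor. A loop ending at the start of ZNF184 was called in all 4 lists. Only its call in vehicle replicate 1, at chr6:27440001-27445000, covered ZNF184. Its other calls, at chr6:27445001-27450000, lay just past the gene, as did most calls at this site in THZ1 replicate 1. PRSS16, a serine protease gene of the thymus, had none in any library. In windows of 25 kb, the anchor site over the start of ZNF184 (chr6:27425001-27450000) was used 11 and 13 times with vehicle against 5 and 6 times with THZ1. The edge of the histone-free stretch next to the second histone group (chr6:27125001-27150000) was used 9 and 11 times against 4 and 4, and the site between PRSS16 and POM121L2 (chr6:27225001-27250000) was used 3 and 6 times against 0 and 0. The window with the second histone group itself (chr6:27100001-27125000) ran the other way, with 2 and 2 against 4 and 4. This did not divide windows with and without histone genes. The window that holds H1-4 and H2BC5 (chr6:26150001-26175000) had 11 and 12 against 9 and 4. The window chr6:27750001-27775000, without a histone gene, had 3 and 3 against 5 and 4. The share of all windows that differed was not counted.

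For genes outside the stretches, only loops with the other anchor in a stretch were counted, and their further loops are not given. Beside the first stretch, HMGN4, a nucleosome-binding protein gene, had 2 and 2 such loops with vehicle against 0 and 0 with THZ1. ABT1, which encodes an activator of basal transcription, had 2 in every library. HFE, the hemochromatosis gene, which lies among the histone genes of the first group, had no loop in any library. TRIM38, BTN3A2, BTN3A1 and BTN2A1 had loops in vehicle replicate 2 only, and BTN2A2 had 1 loop in every library but THZ1 replicate 1. SLC17A1 had 1 loop in vehicle replicate 2 and 1 in THZ1 replicate 1.

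Loops shared by the vehicle lists and absent from the THZ1 lists were described next. Of 14 distinct ones, 12 were also absent from the THZ1 lists when matched from the anchors of each vehicle call. Of these 12, 10 had no histone gene at an anchor and 7 lay within the second stretch. Among all 96 distinct loops, 66 had no histone gene at an anchor and 46 lay within the second stretch. In the other 2, the call of vehicle replicate 1 was itself within 20 kb of a THZ1 loop, and they are not described here. The one with most contacts joined chr6:26330001-26340000 to HMGN4 at chr6:26530001-26540000, with 85 and 100 contacts and ratios of 2.92 and 3.05. Another 3 had 5 kb anchors in replicate 1 and 10 kb anchors in replicate 2. From chr6:26170001-26180000, between H2BC5 and H2BC6, a loop reached HMGN4 with ratios of 4.77 and 4.62. H4C8 was joined to chr6:26330001-26340000 with ratios of 2.66 and 2.09. In the second stretch, chr6:27240001-27250000 was joined to chr6:27440001-27450000 beside ZNF184, whose start site it held in replicate 2 only, with ratios of 3.63 and 2.45. Another loop of this stretch joined chr6:27155001-27160000 to chr6:27720001-27725000 with 40 and 44 contacts and ratios of 5.68 and 5.496. The THZ1 libraries held 3 distinct loops of this kind, the 2 between histone groups given above and 1 from ABT1 at chr6:26600001-26625000 to chr6:27750001-27775000, with 40 and 46 contacts and ratios of 2.61 and 3.15.

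Strength was tested where all 4 lists gave a loop the same anchors, with edgeR's quasi-likelihood test of the observed contacts against the donut expectation. Of 2620 such loops of the genome, 27.5% were called weaker with THZ1 and 0.0382% stronger at an adjusted p of 0.05 or less, and the median log2 change was -0.41. The cluster held 4 of these loops, and 2 were called weaker. The loop from H2BC4 and H2AC6 (chr6:26120001-26125000) to H1-4 and H2BC5 (chr6:26155001-26160000) was at 6.65 and 6.61 times its expectation with vehicle against 4.22 and 3.86 times with THZ1, a log2 change of -0.71 (SE 0.16; edgeR adjusted p = 0.00526). The loop from chr6:26065001-26070000 to H4C3 (chr6:26100001-26105000) was at 4.78 and 6.23 times with vehicle against 2.68 and 4.30 times with THZ1, a log2 change of -0.68 (SE 0.20; edgeR adjusted p = 0.0194). In both loops each THZ1 library was below each vehicle library.

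The other 2 tested loops did not pass. From H2AC15 and H2BC15 (chr6:27805001-27810000) to H3C12 (chr6:27855001-27860000) the ratio was 5.26 and 7.77 with vehicle against 5.09 and 5.25 with THZ1, a log2 change of -0.34 (SE 0.21; edgeR adjusted p = 0.224). In the histone-free stretch, from chr6:27485001-27490000 to chr6:27720001-27725000, it was 5.67 and 4.09 with vehicle against 3.28 and 4.48 with THZ1 (log2 -0.34, SE 0.26; edgeR adjusted p = 0.340). With DESeq2 neither call held, the median log2 change of the 4 loops was -0.50, and 16 of the 2620 loops were called weaker. Neither held for observed contacts without the expectation, where that median was -0.06. Neither held when 1 library was left out, where the median ran from -0.65 to -0.34, and where the fit called none of the 2620 loops in 3 cases and 216 in that without vehicle replicate 1. Loops had to be called in all 4 lists to be tested. The prior value toward which edgeR drew the spread of each loop had a median of 0.852 times the variance of its count model.

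A wider set took loops of the same anchor width with midpoints within 20 kb in all 4 lists, 5014 in the genome, of which 12.6% were called weaker and 0.12% stronger. The cluster held 15, of which 14 had a log2 change below 0, 4 were called weaker and none stronger, with a median log2 change of -0.50 beside -0.37 over the genome. The share of loops of the genome with a log2 change below 0 was not counted. The loop to H4C3 was not called in this set (log2 -0.67; edgeR adjusted p = 0.0573). Positions are those of vehicle replicate 1. Apart from the loop of H2BC4 and H2AC6 with H1-4 and H2BC5 (edgeR adjusted p = 0.0206), the 3 others called weaker were as follows. The loop between the ends of the third histone group, from H2BC13, H2AC13 and H3C10 (chr6:27775001-27780000) to H2AC17 and H2BC17 (chr6:27860001-27865000), or to H3C12 beside them in THZ1 replicate 1, was at 9.99 and 8.22 times its expectation with vehicle against 5.59 and 4.96 times with THZ1 (log2 -0.78, SE 0.19; edgeR adjusted p = 0.0228). The loop across the whole histone-free stretch, from chr6:27125001-27130000 to chr6:27760001-27765000, was at 7.49 and 7.62 against 4.67 and 4.81 times (log2 -0.67, SE 0.20; edgeR adjusted p = 0.0434). The strongest loop called in all 4 lists, from chr6:26605001-26610000 beside ABT1 to chr6:27045001-27050000, was at 12.2 and 13.2 against 5.89 and 9.21 times (log2 -0.79, SE 0.24; edgeR adjusted p = 0.0482). The loop between the stretches from H1-4 and H2BC5 to the second histone group was not called (log2 -0.20, SE 0.27; edgeR adjusted p = 0.676).

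The donut expectations of these loops were higher in the THZ1 libraries. Over the 15 loops the observed contacts summed to 601 and 725 with vehicle against 599 and 586 with THZ1, whereas the donut expectations summed to 97.5 and 118 with vehicle against 150 and 126 with THZ1. In the loop of H2BC4 and H2AC6 with H1-4 and H2BC5, the observed contacts were 100 and 113 with vehicle against 99 and 68 with THZ1, against expectations of 15.0 and 17.1 with vehicle against 23.5 and 17.6 with THZ1. In the loop between the ends of the third histone group, both moved, with 72 and 69 observed contacts with vehicle against 51 and 48 with THZ1, against expectations of 7.21 and 8.39 with vehicle against 9.12 and 9.68 with THZ1. Over all loops of the wider set the expectations summed to 26945 and 31016 with vehicle against 36893 and 34833 with THZ1.

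**Figure D4:**
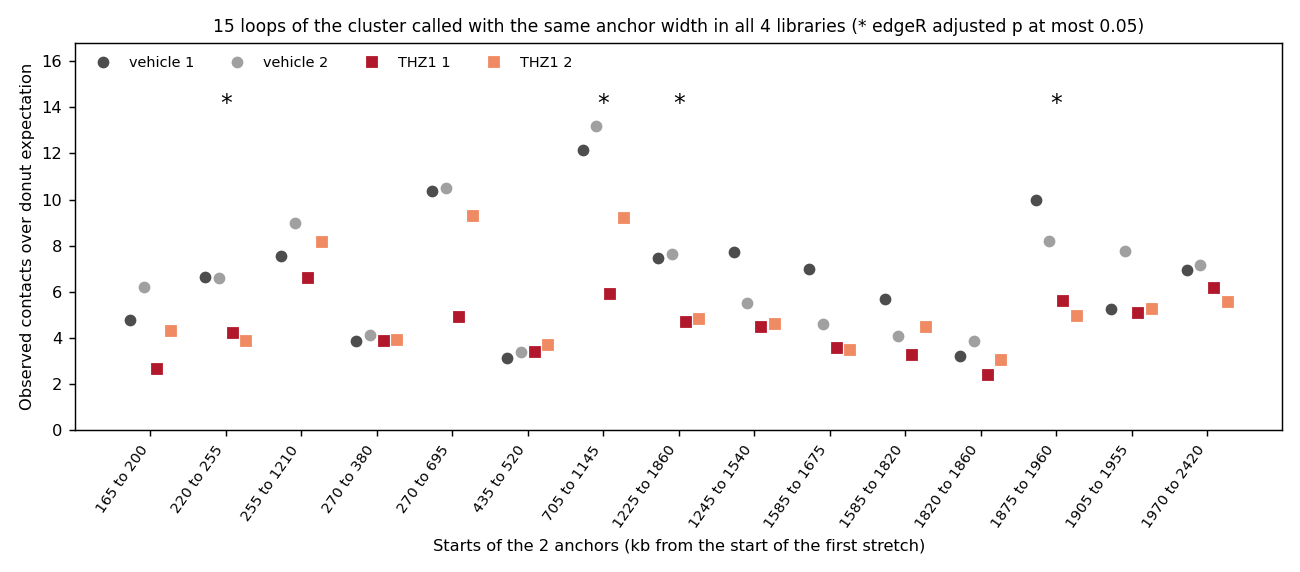
Observed contacts over the donut expectation (vertical axis) in the 4 libraries (circles, vehicle; squares, THZ1) for the 15 loops of the cluster called with the same anchor width in all 4 lists, labelled by the starts of their anchors in vehicle replicate 1 in kb from the start of the first stretch. Asterisks mark the 4 loops called weaker by edgeR, and the loop between the stretches from H1-4 and H2BC5 to the second histone group sits at 7.57 and 8.999 with vehicle against 6.58 and 8.15 with THZ1.

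Domains over the cluster numbered 5 and 3 with vehicle against 5 and 5 with THZ1 (log2 0.32, SD 0.37, n = 2; exact permutation p = 1), while over the genome they numbered 1198 and 1398 with vehicle against 2477 and 2345 with THZ1. The domain found in all 4 lists lay past the third histone group, over the olfactory receptor genes OR2B2 and OR2B6, at chr6:27880001-28030000 with vehicle and to 28040000 with THZ1. A domain in both THZ1 lists only, at chr6:25630001-25950000, held H2AC1, H2BC1, SCGN and SLC17A genes, with corner scores of 1.26 and 1.27. These 2 met the naming rule. Others were chosen after their values were seen. A domain of 12 histone genes from H3C1 to H2AC6, with HFE, at chr6:26020001-26150000, was in every list but vehicle replicate 2. The domain over the histone-free stretch, at chr6:27120001-27760000, was in every list but THZ1 replicate 1, with corner scores of 1.499, 1.65 and 1.59, and the loops inside it numbered 23 and 29 with vehicle and 13 in THZ1 replicate 2.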

How the data were processed

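Arima-HiC libraries of MDA-MB-231 cells were made by the authors, 2 per condition, and processed with Juicer 1.6 on hg19 per the submitters' processing notes; the loop lists name juicer_tools 1.19.02. In the loop lists that the authors deposited, observed values are counts of contacts without normalization, expected values are a signal on the same scale from 4 neighborhoods, and FDR values are q-values. The domain lists that the authors deposited hold Arrowhead's corner score. Settings of both callers are not given in the sources used here. The deposited tables of loops unique to a condition hold pooled counts and signal.

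An anchor lay in a stretch by its midpoint. Loop size was the distance between anchor starts, and loops of different lists matched within 20 kb. Genes were those of GENCODE 44 lifted to GRCh37, with the canonical transcript of each histone gene. HIST1H4B was named H4C2 through RefSeq. Promoters and motifs were read from the GRCh37 genome with Python 3.11.15. Library values were compared by exact two-sided permutation over 6 splits. Strength was fitted across the genome with edgeR 4.0.16 in R 4.3.3, with the log donut expectation as offset and Benjamini-Hochberg adjustment, and with DESeq2 1.42.0 as an alternative. The fit was tested on data simulated with 1 common dispersion, with 200 of 2620 loops changed. It recovered 21% of 1.5-fold and 71% of 2-fold changes, with 3 false calls.

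The members, gene lists and tests were chosen with earlier results of these data known. Named were histone genes by class, a fixed set of neighbor genes, loops between the stretches called in at least 2 libraries, up to 10 loops of 1 condition by summed contacts, tested loops past the threshold with the same direction in 4 pairs, the largest and the strongest loop of all 4 lists, and domains in all 4 lists or in both of 1 condition. Genes, loops and windows beyond this rule were chosen after their values were seen, and are POM121L2, OR2B2, ZSCAN31, ZKSCAN3, the 25 kb windows and the single loops of the wider set of 15.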

Additional observations from a re-analysis of the deposited data

How the results depend on the processing

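Of 68 alternatives over 8 results, 43 kept the value within the spread between libraries or the count of calls within 1.5 times. Those kept include membership by any overlap or by the whole anchor, for loop number, loops joining the stretches and share of short loops. These could not differ from the midpoint rule, as the stretch edges fall on anchor edges. The log2 ratio of loop numbers was -0.19 with only 25 kb anchors, and -0.93 to -0.47 when 1 library was left out. The difference in loops joining the stretches was 1 with only 5 kb anchors and -1 with only 25 kb anchors, and ran from -1 to 1 without 1 library. The difference in the share of loops of 90 kb or less was -1.82 points with 5 kb, -15.7 with 10 kb and 0 with 25 kb anchors. Calls of weaker loops among the 4 tested fell from 2 to 1 with the horizontal expectation and to 0 with the vertical expectation, with observed counts scaled by TMM and with DESeq2 (2 at an unadjusted p under 0.05 with DESeq2 and with the vertical expectation, 1 with TMM). They were 4 of 15 in the wider set, where 1 of the first 2 was lost, and 0 to 0 without any 1 library, where 0, 0, 0 and 216 of all 2620 loops were called. The log2 ratio of domain numbers was 0.74 with corner scores at or above the median, and 0 to 0.74 without 1 library. For alternatives chosen after seeing the data, loops with a histone gene at neither anchor had log2 ratios of -1.29 to -0.74 without 1 library, those with a histone gene at both anchors had -0.14 with a 10 kb margin, -0.30 under the stricter false discovery rate and -0.20 to 0.28 without 1 library, and the difference in loops called in 1 condition only was -11 at 10 kb (16 and 16 with vehicle against 5 and 5 with THZ1) and -8.5 at 50 kb (8 and 9 against 0 and 0). The causes were not tested.

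Libraries with the same number did not deviate together from loop to loop (r = 0.02 across 2620 loops). A shift common to all loops of a library does not enter this value, so it cannot tell whether the replicate numbers paired the samples. With the replicate block, 2 of the 4 loops were again called weaker, and 770 in the genome against 720. Loops of 13 to 113 contacts limited the precision per loop, and with 2 libraries per condition no library count could pass the threshold.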

Other observations

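A pair of sites outside the stretches lay at loop anchors in every library, counting only loops with the other anchor in a stretch. ZSCAN31 and ZKSCAN3, neighboring zinc finger genes past the second stretch, lay at 2 and 3 loops with vehicle and 3 and 2 with THZ1. The site past ABT1 (chr6:26600001-26625000) was used 1 and 2 times with vehicle and 4 and 3 times with THZ1. Inside the second stretch, past the third histone group, OR2B2 lay at 1 and 2 loops with vehicle and 0 and 0 with THZ1. The loop of vehicle replicate 1 was also called in THZ1 replicate 1, with a 25 kb anchor at chr6:27850001-27875000 that ended short of OR2B2.

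Of 989 loops in the deposited table of loops unique to vehicle, 1 lay over the cluster, and of 177 in the table for THZ1 there was none. That loop, in the histone-free stretch from chr6:27655001-27660000 to chr6:27755001-27760000, carried 25 contacts against a donut expectation of 6.67 in pooled vehicle counts and was within 20 kb of no loop in any of the 4 library lists.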
